A study of Homo sapiens with 6 samples.

Results

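The BCL2 family genes for which values were examined are those that set whether a cell keeps its mitochondria intact or commits to apoptosis, and they were taken from a list of gene names, with no threshold on a measured value. The rule named 10 genes: the survival genes BCL2, BCL2L1, BCL2L2 and MCL1, the pore-forming effector BAK1, and the BH3-only genes BAD, BID, BIK, BCL2L11 and PMAIP1. Of these, 9 were among the 14168 genes listed and all 9 passed the filter on low values, out of 13050 genes tested. BCL2 itself was not analysed here.

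The cells were HaCaT, an established line of spontaneously immortalised human keratinocytes, transfected with an siRNA against Agrin (siAgrin, n = 3) or with a control siRNA (siControl, n = 3). Agrin is a large heparan sulfate proteoglycan of the extracellular matrix, and the series asks which transcripts depend on it in keratinocytes. Polyadenylated RNA was sequenced, and the values are CPM, reads per gene scaled to the library's total, with 40958553 to 43312708 reads in the listed genes of each library. Both groups went through siRNA delivery, which of the study's Agrin siRNAs was sequenced and when the cells were harvested are not given in the sources used here, and the labels do not say whether the replicates were separate cultures. The study's methods describe biological replicates for most of its cell culture experiments, without naming the sequencing, so p-values measure the spread between these libraries, which may be technical.

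Proteins of this family act on the outer mitochondrial membrane. The survival proteins hold the effectors BAK and BAX in check. The BH3-only proteins carry a short helix, the BH3 domain, which fits into a groove of the survival proteins and occupies them or, for some, engages the effectors directly. When effectors form pores, cytochrome c escapes and caspases are activated. In epidermis, MCL1 and BCL-xL (the long protein from BCL2L1) are known survival proteins of keratinocytes, which also undergo programmed death when they cornify.

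The BH3 coding stretch is shown because it is the element that these members share. In BH3-only proteins and effectors it fits into the groove of a survival protein, while in survival proteins it forms part of that groove. Each line gives 48 coding bases, 5′ to 3′, from the MANE Select transcript of GENCODE release 44 on GRCh38, and the capitals mark the 6 codons of the BH3 core, which encode leucine, 3 free residues, glycine and aspartate. In BCL2L2 the leucine is replaced by methionine, and in BAD the glycine is replaced by serine.
MCL1: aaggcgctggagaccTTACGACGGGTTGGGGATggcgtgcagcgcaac
BCL2L1: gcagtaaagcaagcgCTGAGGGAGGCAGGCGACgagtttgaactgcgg
BCL2L2: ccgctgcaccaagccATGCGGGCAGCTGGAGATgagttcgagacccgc
BCL2L11: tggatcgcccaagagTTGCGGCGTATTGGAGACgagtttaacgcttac
PMAIP1: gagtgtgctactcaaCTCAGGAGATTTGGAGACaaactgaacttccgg
BAD: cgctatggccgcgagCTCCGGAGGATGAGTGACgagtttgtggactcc

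The MCL1 stretch lies in exon 1 at chr1:150578862-150578909 on the minus strand, and that of BCL2L11 in exon 3 at chr2:111150088-111150135 on the plus strand. Those of BCL2L1 (exon 2, chr20:31721919-31721966, minus strand), BCL2L2 (exon 3, chr14:23307888-23307935, plus strand), PMAIP1 (exon 2, chr18:59902658-59902705, plus strand) and BAD (exon 3, chr11:64271619-64271666, minus strand) are coding as well. Of the 18 core bases, BCL2L11 shares 12 with MCL1, more than the other members, which share 7 to 10. The strict core was found in 7 members and a variant in 2. The core is short: it occurs in 14.0% of 19061 MANE Select coding sequences, or 31.3% with the methionine and serine variants allowed, so a match describes the letters and not a working domain.

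Agrin transcript was reduced as labelled. AGRN had 402.9, 411.7 and 387.4 CPM in siAgrin cells, against 797, 832.9 and 833.5 CPM in siControl cells, a log2 fold change of -1.03 (SE 0.047, limma adjusted p = 2.6e-05) and a mean at 48.8% of control. The keratinocyte identity of the cells was checked with 12 markers, all of them listed, whose summed level was 13400 to 14889 CPM in siAgrin and 12807 to 13131 CPM in siControl libraries (4 rose and 1 fell). The markers that rose were KRT14, ITGA6, DSG3 and COL17A1, with log2 fold changes of 0.60, 0.54, 0.48 and 0.34. The marker that fell was KRT15, with means of 873 CPM in siAgrin and 1837 CPM in siControl cells (log2 fold change -1.07, limma adjusted p = 2.3e-04).

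None of the 9 members passed the test, limma on log2(CPM + 0.5) with Benjamini-Hochberg adjusted p below 0.01. Across all tested genes 18.2% passed it, 9.14% higher and 9.07% lower in siAgrin cells. edgeR also called 0 members, and it called 2360 of 13050 tested genes. DESeq2 called 1 member, MCL1 (adjusted p = 0.0092), and 3361 of 13050 tested genes. A limma fit with the replicate number as a block called 2, MCL1 (adjusted p = 0.0042) and BCL2L11 (adjusted p = 0.0076), and it called 3966 of 13050 tested genes. In the main limma fit at an adjusted p below 0.05, 2 members passed (MCL1 and BCL2L11), against 36.8% of tested genes. At an unadjusted p below 0.05, 3 did (with BAD), against 47.4%. The 95% intervals reached at most a 1.46-fold difference in either direction, from a lower bound of -0.55 for BCL2L11 to an upper bound of 0.31 for BCL2L2 on the log2 scale. The members' median log2 fold change was -0.09, against -0.0019 over all tested genes, with 6 negative and 3 positive values. Their median size without sign was 0.13, against 0.15 over all tested genes.

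**Figure D1:**
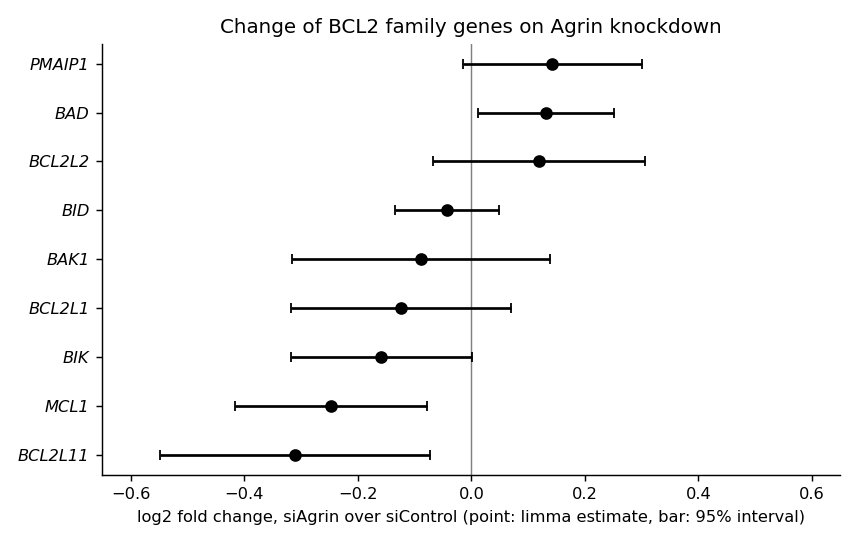
Log2 fold change, siAgrin over siControl, of each member with its 95% limma interval. The intervals of MCL1 and BCL2L11 lie below 0 and that of BAD above it, and no interval extends past -0.55 or 0.31.

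MCL1 (1:150560895-150579738, minus strand) encodes a short-lived survival protein that binds BIM, NOXA and BAK. It had 455.1, 557 and 497.1 CPM in siAgrin cells, against 580.9, 603 and 601 CPM in siControl cells. All 3 siAgrin libraries were below all 3 siControl libraries, the nearest being siAgrin replicate 2. The means were 503 ± 51.2 and 595 ± 12.4 CPM (SD, n = 3 each), so the siAgrin mean was 84.5% of control, with a log2 fold change of -0.25 (SE 0.073) and a limma adjusted p of 0.031, short of the threshold of 0.01. With siAgrin replicate 2 left out the log2 fold change was -0.32 and the limma adjusted p 0.0020, past the threshold. With siAgrin replicate 3 left out they were -0.24 and 0.109. Over all tested genes these fits called 3370 and 589, against 2377 with all 6 libraries.

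BCL2L1 (20:31664452-31723989, minus strand) encodes BCL-xL, and a shorter splice form, BCL-xS, that favours death. It measured 71.2, 89.8 and 76.2 CPM in siAgrin cells, against 81.5, 85.8 and 90.2 CPM in siControl cells, with overlapping groups. The log2 fold change was -0.12 (SE 0.084, 95% interval -0.32 to 0.07, limma adjusted p = 0.28). Gene-level counts do not separate the splice forms of BCL2L1, MCL1 or BCL2L11, some of which have opposed activities. The opposite-strand transcript ABALON covers 41.3% of the exon bases of BCL2L1, and the strand setting of the counting is not given in the sources used here, although the library kit keeps strand.

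BCL2L2 (14:23298790-23311751, plus strand) encodes the survival protein BCL-w. Its values were 56.2, 68.7 and 64.7 CPM in siAgrin cells, against 53.9, 58.2 and 61.9 CPM in siControl cells. The groups overlapped, and the log2 fold change of 0.12 (SE 0.081, limma adjusted p = 0.28) had an interval of -0.07 to 0.31. The read-through gene BCL2L2-PABPN1 shares 16.8% of the BCL2L2 exon bases on the same strand. It had 63.4, 58.9 and 61.1 CPM in siAgrin, against 67.0, 66.9 and 66.5 CPM in siControl libraries, with no overlap and a log2 fold change of -0.13 that did not pass the test (limma adjusted p = 0.045). When both were summed the log2 difference was -0.0059. That sum takes in all reads of the read-through gene, of whose exon bases 34.4% are shared with BCL2L2 and 61.1% with PABPN1. PABPN1 had a log2 fold change of -0.19 (limma adjusted p = 0.032). The sum therefore does not show how the shared bases were counted. On the opposite strand, HOMEZ and PPP1R3E cover 3.08% and 6.51% of the BCL2L2 exon bases, and both fell in siAgrin cells, HOMEZ with a log2 fold change of -0.34 (limma adjusted p = 0.0023) and PPP1R3E with -0.44 (limma adjusted p = 0.0090).

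BAK1 (6:33572547-33580293, minus strand) encodes the effector BAK. It had 37.9, 50.6 and 41.5 CPM in siAgrin cells, against 43.3, 46.6 and 47.4 CPM in siControl cells. The siAgrin values lay on both sides of the siControl values, with a log2 fold change of -0.09 (SE 0.099, limma adjusted p = 0.51) and an interval of -0.32 to 0.14. Without siAgrin replicate 1 the value was 0.0027. The annotation lists the pseudogenes BAK1P1 and BAK1P2 elsewhere in the genome, so reads that match them equally well may not be counted for BAK1.

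BCL2L11 (2:111119378-111168444, plus strand) encodes BIM, a BH3-only protein that binds every survival member and can engage effectors. Its values were 30.6, 42.4 and 36.8 CPM in siAgrin cells, against 45.0, 45.7 and 44.6 CPM in siControl cells. Each siAgrin library was below each siControl library, and siAgrin replicate 2 was again the nearest. The means were 36.6 ± 5.89 and 45.1 ± 0.525 CPM (SD, n = 3 each), with siAgrin at 81.1% of control, the lowest of the 9 members. The log2 fold change was -0.31 (SE 0.10, 95% interval -0.55 to -0.07), with a limma adjusted p of 0.046, short of the threshold. Leaving out siAgrin replicate 2 gave -0.42 and a limma adjusted p of 0.0023, past it. Leaving out siControl replicate 2 gave -0.30 and 0.131. Over all tested genes these fits called 3370 and 665. The opposite-strand transcript MIR4435-2HG, which covers 10.8% of the BCL2L11 exon bases, had a log2 fold change of 0.03.

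PMAIP1 (18:59899996-59904305, plus strand) encodes NOXA, which binds MCL1 preferentially. It had 146.9, 165.5 and 166.4 CPM in siAgrin cells, against 156.5, 136.8 and 140.4 CPM in siControl cells. The highest siControl library exceeded the lowest siAgrin library, so the groups overlapped. The log2 fold change was 0.14 (SE 0.068, limma adjusted p = 0.14).

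BAD (11:64269830-64284704, minus strand) encodes a BH3-only protein that binds BCL-xL and BCL-w and is held inactive by phosphorylation. It was the single member whose siAgrin values all exceeded the siControl values, with 30.7, 31.4 and 29.9 CPM in siAgrin cells, against 27.1, 29.5 and 27.4 CPM in siControl cells. The log2 fold change was 0.13 (SE 0.052) with a limma adjusted p of 0.081. BAD shares 23.7% of its exon bases with GPR137 on the opposite strand, which had a log2 fold change of 0.06.

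BID (22:17734138-17774770, minus strand) encodes the protein that caspase cleavage turns into a link from death receptors to mitochondria. Its values varied little, with 61.5, 61.3 and 58.7 CPM in siAgrin cells, against 62.2, 61.9 and 62.8 CPM in siControl cells. The groups did not overlap, yet the log2 fold change was only -0.04 (SE 0.040, limma adjusted p = 0.42).

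BIK (22:43110750-43129712, plus strand) encodes a BH3-only protein located mainly at the endoplasmic reticulum. It had 24.7, 28.4 and 24.9 CPM in siAgrin cells, against 27.3, 30.2 and 29.5 CPM in siControl cells. The groups overlapped through siAgrin replicate 2 and siControl replicate 1, and the log2 fold change was -0.16 (SE 0.069, limma adjusted p = 0.11).

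**Figure D2:**
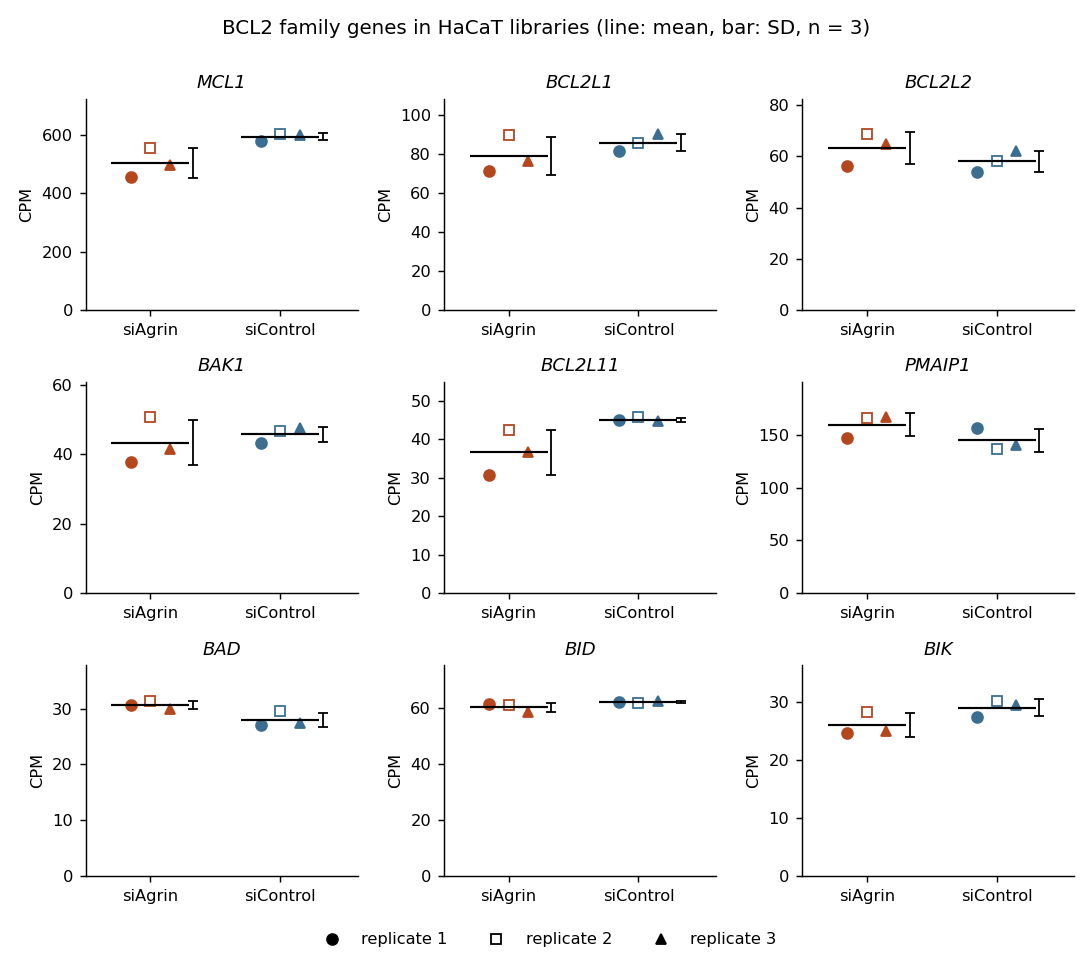
CPM of each member in each library, with siAgrin left and siControl right, lines at the group means and bars of 1 SD to each side (n = 3). Each panel has its own axis, and MCL1, BCL2L11 and BID show siAgrin points all below siControl points, BAD the opposite, and the other 5 overlap.

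Counted over members, 1 had siAgrin values all above siControl values and 3 all below, while 25.0% of tested genes lay above and 24.9% below without overlap. With 3 libraries against 3, the smallest two-sided p of an exact permutation test is 0.1, which these 4 members reach. With so few members, and with so many tested genes free of overlap, these counts are no result about the members.

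The siAgrin libraries were less alike than the siControl libraries for these genes. The within-group SD on the log2 scale was larger in siAgrin for 7 of 9 members, as it was for 67.0% of tested genes, with medians of 0.15 in siAgrin and 0.069 in siControl over the members, against 0.086 and 0.062 over all tested genes. Replicate 2 was the highest siAgrin library for 7 of 9 members and for 40.6% of tested genes, and replicate 1 was the lowest for 7 of 9 members and for 40.2% of tested genes. The summed level of 8 fibroblast markers followed the same order of libraries, at 9.47, 46.9 and 21.9 CPM in siAgrin, against 12.5, 19.6 and 12.2 CPM in siControl. The sums of the keratinocyte markers (13400, 14889 and 14305 CPM in siAgrin replicates 1, 2 and 3) and of the 2 listed immune markers (24.9, 36.6 and 29.8 CPM) had that order too. The immune sum was nearly all CD68 (24.8, 36.6 and 29.6 CPM), and in siControl libraries it was 35.4, 43.3 and 46.6 CPM. The sum of the 2 listed melanocyte markers had another order, with 7.79, 7.53 and 7.99 CPM in siAgrin replicates 1, 2 and 3. The share of CPM in 16 mitochondrially encoded genes was 0.646%, 0.781% and 0.699% in siAgrin libraries, against 1.14%, 1.13% and 1.14% in siControl libraries. The part of these differences in the members' values was not tested, and in bulk RNA fewer cells of a type and less RNA per cell cannot be told apart.

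**Figure D3:**
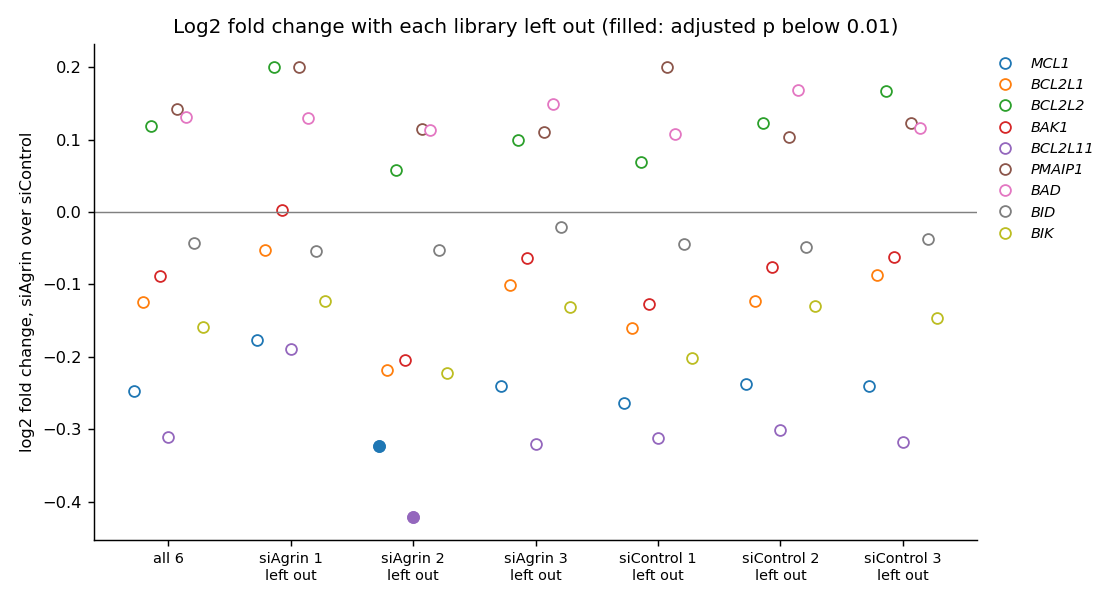
Log2 fold change of each member with all libraries and with each library left out in turn, filled where the limma adjusted p is below 0.01. Filled points occur for MCL1 and BCL2L11 with siAgrin replicate 2 left out, at -0.32 and -0.42.

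Levels were compared between genes as CPM per kilobase of exon. MCL1 was highest, with a mean of 80.9 in siAgrin and 95.6 in siControl cells, followed by PMAIP1 with 73.0 and 66.1. BIK had 27.3 and 30.5, BAK1 19.6 and 20.7, BCL2L1 18.8 and 20.5, and BAD 18.0 and 16.4 CPM per kilobase in siAgrin and siControl cells. BID (13.7 and 14.1), BCL2L2 (13.1 and 12.0) and BCL2L11 (5.42 and 6.69) were lowest on this scale. Both groups had the same order. The ranges over the 6 libraries overlapped between MCL1 and PMAIP1, BAK1 and BCL2L1, BCL2L1 and BAD, and BID and BCL2L2, while the other neighbours in the order did not overlap. Among 11877 tested genes with a length, MCL1 stood at percentile 96.8 and BCL2L11 at 51.1. Exon length takes in all annotated transcripts of a gene, so a gene with long unused exons is understated.

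**Figure D4:**
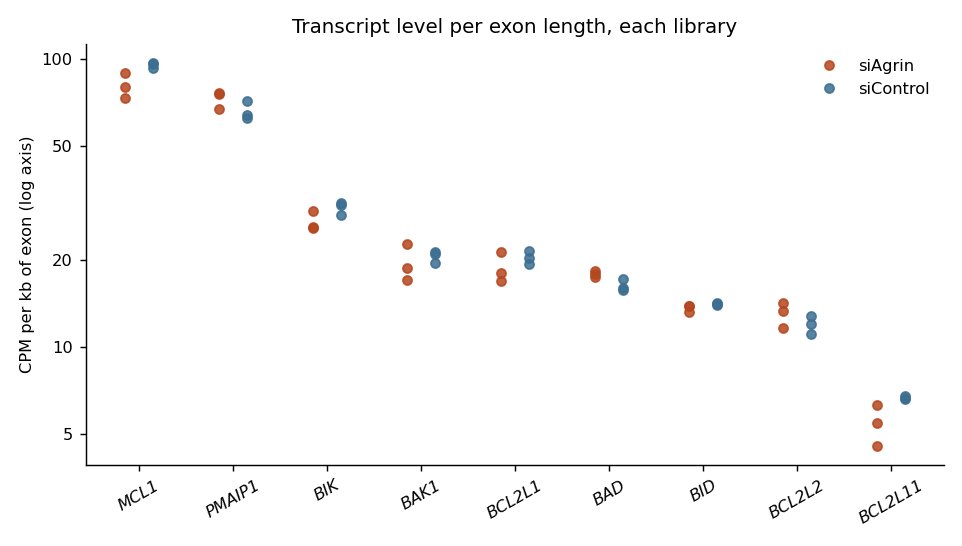
Level of each member in CPM per kilobase of exon on a log axis, for 3 siAgrin and 3 siControl libraries. MCL1 and PMAIP1 stand above the rest and BCL2L11 below, in the same order in both groups.

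Ratios of CPM between known binding partners were formed within each library for 7 pairs, which were chosen after the values had been seen and are given without a test. The length of the genes is not divided out, so a ratio is read across libraries only. PMAIP1 to MCL1 was 0.323, 0.297 and 0.335 in siAgrin cells, against 0.269, 0.227 and 0.234 in siControl cells. BAK1 to MCL1 was 0.0832, 0.0908 and 0.0835 in siAgrin cells, against 0.0746, 0.0772 and 0.0789 in siControl cells. BAD to BCL2L1 was 0.431, 0.350 and 0.392 in siAgrin cells, against 0.332, 0.344 and 0.304 in siControl cells. The groups did not overlap for these 3 ratios and overlapped for the other 4, among them BCL2L11 to MCL1. The share of all gene pairs whose ratios do not overlap was not computed, and 25.0% of single genes already lay above without overlap, so the count is no result about the pairs.

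The genes that surround the family were taken as 8 lists of 104 genes, of which 91 were tested. In siAgrin cells 10 rose, 10 fell and 71 did not pass the test, so 22.0% were called, against 18.2% of all tested genes, and the median log2 fold change was 0.02. These counts depend on single libraries: 3 rose and 2 fell without siAgrin replicate 3, 3 and 3 without siControl replicate 2, 3 and 3 without siControl replicate 3, and 10 and 4 without siControl replicate 1. Calls over all tested genes fell too, from 2377 with all 6 libraries to 589, 665, 741 and 1536 in these fits, respectively. AIFM1, MAPK9, CASP1, CASP14 and TNFSF10 were called with each of the 6 libraries left out in turn, and HRK in 5 of 6, while the other called genes kept the call in 0 to 3 of 6.

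Among the other BCL2 family genes, 1 of 8 tested fell and none rose (median -0.08). It was HRK, a BH3-only gene that binds BCL-xL, at 5.40 ± 0.913 CPM in siAgrin and 10.1 ± 0.347 CPM in siControl cells (SD, n = 3 each), a log2 fold change of -0.85 (limma adjusted p = 0.0012, or 0.0101 without siAgrin replicate 3). The effector BAX was at 0.10 (limma adjusted p = 0.32), and the BH3-only genes BBC3 and BMF were at -0.05 (limma adjusted p = 0.86) and -0.61 (limma adjusted p = 0.033).

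Of 18 genes for partners and turnover of the family, 2 rose and none fell (median 0.03). HUWE1, a ubiquitin ligase for MCL1, averaged 379 ± 14.2 CPM in siAgrin and 298 ± 12.2 CPM in siControl cells (SD, n = 3 each; log2 fold change 0.34, limma adjusted p = 0.0018, or 0.0157 without siAgrin replicate 3). YWHAQ, from the adaptor family that keeps phosphorylated BAD in the cytosol, averaged 416 ± 2.37 and 363 ± 1.18 CPM in siAgrin and siControl cells (log2 fold change 0.20, limma adjusted p = 0.0063, or 0.043 without siAgrin replicate 3).

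Of 17 kinases that act on BAD or BIM, 2 rose and 1 fell (median 0.11). MAPK9, a JNK kinase, had a log2 fold change of 0.36 with means of 74.2 CPM in siAgrin and 57.8 CPM in siControl cells (limma adjusted p = 9.8e-04). RPS6KA3, an RSK kinase, fell by 0.18 (limma adjusted p = 0.0094). Of 16 transcription factors tested, HIF1A rose, at 362 and 273 CPM in siAgrin and siControl cells (log2 fold change 0.41, limma adjusted p = 0.0034), and FOXO4 fell, at 12.6 and 16.1 CPM (-0.34, limma adjusted p = 0.0030).

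Downstream, a list of 8 genes held APAF1 and genes for mitochondrial proteins, of which AIFM1, OPA1 and VDAC1 rose and none fell (median 0.25), with APAF1 at -0.11 (limma adjusted p = 0.25). AIFM1, a flavoprotein released on permeabilisation, averaged 90.2 ± 3.14 CPM in siAgrin and 69.4 ± 2.32 CPM in siControl cells (SD, n = 3 each; log2 fold change 0.38, limma adjusted p = 9.2e-04). OPA1, which shapes the inner membrane, was at 0.34 (limma adjusted p = 0.0013) and VDAC1, an outer membrane channel, at 0.28 (limma adjusted p = 0.0023), and both lost the call without siAgrin replicate 3, siControl replicate 2 or siControl replicate 3.

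Of 10 caspases tested, 5 fell and 1 rose (median -0.22). CASP1, an inflammatory caspase, averaged 37.5 ± 1.69 CPM in siAgrin and 53.6 ± 1.14 CPM in siControl cells (SD, n = 3 each; log2 fold change -0.51, limma adjusted p = 3.3e-04). CASP4, another inflammatory caspase, was at -0.40 (limma adjusted p = 0.0067). CASP2 (-0.24, limma adjusted p = 0.0077) and CASP10 (-0.39, limma adjusted p = 0.0078) also fell and are named outside the rule, after their values were seen. CASP14, a caspase of cornification, rose, at 5.40 ± 0.437 CPM in siAgrin and 2.74 ± 0.229 CPM in siControl cells (log2 fold change 0.87, limma adjusted p = 6.3e-04). CASP8 (-0.09) and CASP9 (-0.22) did not pass the test. With each library left out in turn, CASP1 and CASP14 kept the call in 6 of 6 fits, CASP4 in 2, CASP10 in 1 and CASP2 in 0.

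Of 5 inhibitor of apoptosis genes, BIRC5 rose and none fell (median -0.10). BIRC5 was at 87.9 ± 9.92 CPM in siAgrin and 60.4 ± 1.53 CPM in siControl cells (SD, n = 3 each), with a log2 fold change of 0.53 (limma adjusted p = 0.0018). It encodes survivin, which also acts in cell division. BIRC3, named outside the rule after its value was seen, was at -0.70 and did not pass the test (limma adjusted p = 0.026). Of 9 death receptor genes, 2 fell and none rose (median -0.12). TNFSF10, which encodes the death ligand TRAIL, averaged 137 ± 25.8 CPM in siAgrin and 269 ± 18.5 CPM in siControl cells (log2 fold change -0.98, limma adjusted p = 9.95e-04), and CFLAR, the inhibitor of caspase activation at these receptors, was at -0.33 (limma adjusted p = 0.0078).

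**Figure D5:**
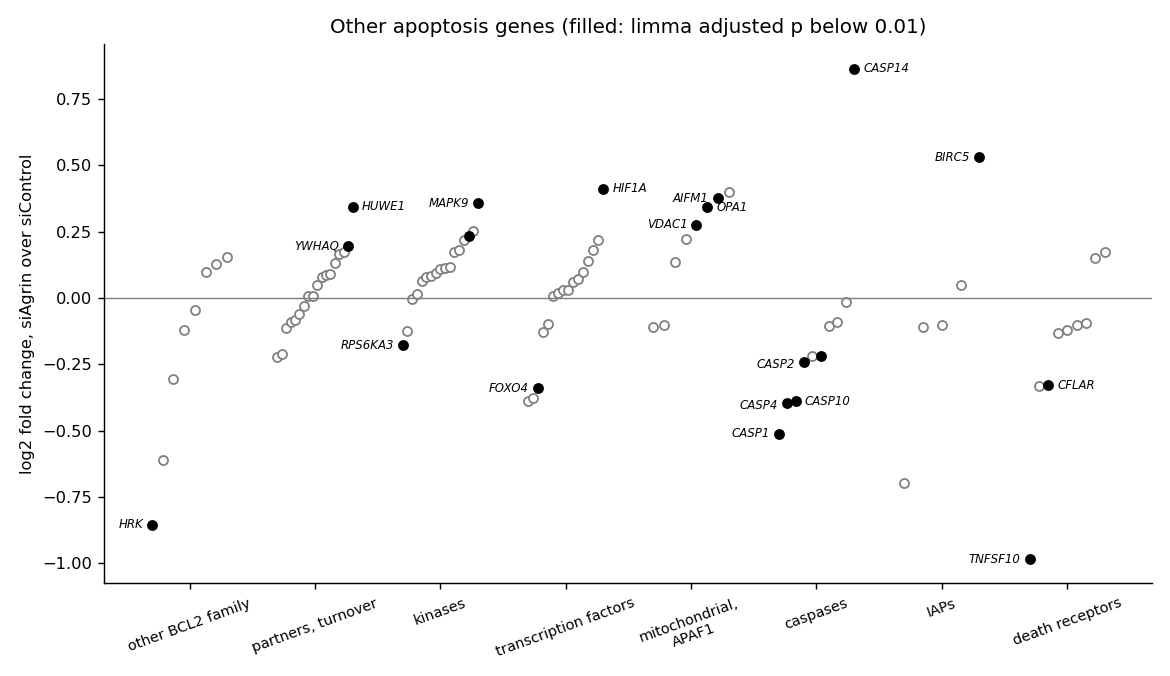
Log2 fold change, siAgrin over siControl, of 91 tested genes in the 8 lists around the family, filled where the limma adjusted p is below 0.01. The filled points number 10 above 0 and 10 below it, from TNFSF10 at -0.98 to CASP14 at 0.87.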

How the data were processed

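Per the submitters' processing notes, STAR 2.6.1d, SAMtools, HTSeq and edgeR were used with hg38. The authors deposited CPM values per gene for 6 libraries, each column named for its group and replicate. The labels and the study's methods differ in RNA kit and culture medium. Of the values above 0, 100.0% were whole multiples of 1 read within 0.01 read, so whole reads were recovered, and edgeR on them called 2360 genes.

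A two-sided limma-trend fit (limma 3.58.1, R 4.3.3) was run on log2(CPM + 0.5). Genes needed 0.5 CPM or more in 3 or more libraries, which left 13050, and Benjamini-Hochberg adjustment ran over all of them. A call is an adjusted p below 0.01, the study's false discovery rate, which gave 2377 genes. The study also required more than a 2-fold change, and that condition was not applied to the calls here. Fold changes are on the log2(CPM + 0.5) scale. Alternatives were edgeR 4.0.16, DESeq2 1.42.0, leaving out each library, a threshold of 0.05, a replicate block, robust fitting, no trend, median-ratio or TMM scaling, a mean of 5 CPM or more as filter, no filter, and pseudocounts of 0.1 and 2 CPM. The fit was tested on simulated data.

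The members and lists were chosen with earlier results of these data known. Named genes are AGRN, the members, up to 4 called genes of smallest adjusted p in each list, exceptions, and genes overlapping a member. PABPN1, which overlaps the read-through gene, the called keratinocyte markers and the marker CD68 are named as well. Positions and lengths are from GENCODE release 44, not the release used for counting, and MARCHF5 was matched by an older symbol. Some genes of the lists enter the counts but are not reported here by name.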

Additional observations from a re-analysis of the deposited data

How the results depend on the processing

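For members, 147 of 154 alternative values kept their direction and side of the threshold, 5 passed it and 2 changed sign. No alternative called a member as higher. The count of members that fell was 1 with DESeq2, 2 at an adjusted p below 0.05, 2 with the replicate block, and 0 to 2 with a library left out. MCL1 was at -0.24 with DESeq2 (adjusted p = 0.0092) and between -0.32 and -0.18 with a library left out, and BCL2L11 between -0.42 and -0.19. The sign changes were BCL2L2, at -0.0059 when summed with its read-through gene, an alternative chosen after seeing the data, and BAK1, at 0.0027 without siAgrin replicate 1, with left-out values from -0.20 to 0.0027. The cause was not tested. Of the genes of the other lists, 3 to 11 rose and 2 to 12 fell with a library left out, 19 rose and 17 fell at an adjusted p below 0.05, and 6 fell with no filter and 4 with no trend. For AGRN and 18 named genes of these lists, 266 of 322 alternatives kept the call, 56 lost it and 0 changed sign. AGRN kept its call in each of its alternatives, so the lost calls were all of list genes. All genes called numbered 589 to 3370 with a library left out, 3361 with DESeq2, 1678 with no filter and 3966 with the block.

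Replicate numbers were not taken to pair the samples. Deviations of same-numbered libraries correlated at 0.53, 0.38 and -0.0018. Those of siAgrin replicate 1 with siControl replicates 2 and 3 correlated at -0.36 and -0.34. For siAgrin replicate 2 the values were -0.55 with siControl replicate 1 and 0.35 with siControl replicate 3. Deviations were taken from the mean of each group, so positive correlations bring negative ones with them. For siAgrin replicate 3 the values were 0.031, -0.038 and -0.0018 with siControl replicates 1, 2 and 3. These correlations do not settle whether the numbers pair the samples. With the replicate block MCL1 stayed at -0.25 (limma adjusted p = 0.0042) and BCL2L11 at -0.31 (limma adjusted p = 0.0076), and 16 genes of the other lists fell. Whether depth or the number of libraries limits the calls of members was not tested.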
